A study of Mus musculus with 3 samples.

Results

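The genes that license replication origins and build the replication fork were compared between high fat diet (HFD) and normal diet (ND) in sorted splenic CD4 T cells of memory phenotype, helper T cells that bear the surface marks of past antigen contact. The set held 42 genes, chosen by name from the known replication machinery, of 18193 genes named on the array. This set and the gene lists compared with it below were chosen with earlier results of these data known. A gene entered through probe sets (groups of short probes) annotated to that gene alone, and its value was that of its brightest probe set by mean intensity over the 3 arrays. In all 41 of the 42 genes had such a probe set, 90 probe sets between them, and all 41 passed the filter on dim genes described below. Chaf1a, the large subunit of a histone chaperone, had none and was not analysed here.

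The HFD group held 2 arrays, from BALB/c mice given a diet with 60 kcal% fat for 10 weeks, and the ND group held 1 array, from BALB/c mice on a normal diet for the same time. The cells of both groups came from spleen by flow sorting, at a stated purity above 99%, and carried no engineered allele or other treatment in the labels. The labels do not say whether a sample came from 1 mouse or from a pool, nor whether the 2 HFD samples are biologically separate, so the p-values speak only of scatter among these arrays, possibly technical. The ND array has no replicate and was assumed to vary like the HFD arrays.

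Before a cell copies its DNA, the origin recognition complex marks origins, and Cdc6 and Cdt1 load the ring-shaped MCM2-7 helicase there. At the start of S phase Cdc45 and the GINS complex join MCM2-7 to form the active helicase. DNA polymerase alpha with its primase then starts each strand, and polymerases delta and epsilon extend it, held by the PCNA clamp that replication factor C loads. Resting T cells hold little of this machinery, and entry into the cell cycle induces much of it, in large part through E2F transcription factors.

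The promoters are shown first for 5 genes that rose in HFD and hold an E2F-type match, and for Rpa1, which did not pass the test in either direction and holds none, all picked after their values and matches were seen. Each sequence runs 5′ to 3′ from 250 bases before the gene's start to 50 bases after it, from RefSeq on GRCm38.p6, a C57BL/6J genome. Capitals mark matches to the E2F-type letters TTTCCCGC, TTTCGCGC, TTTGCCGC or TTTGGCGC on either strand, which can overlap each other.
Orc1, chr4:108579204-108579503, plus strand: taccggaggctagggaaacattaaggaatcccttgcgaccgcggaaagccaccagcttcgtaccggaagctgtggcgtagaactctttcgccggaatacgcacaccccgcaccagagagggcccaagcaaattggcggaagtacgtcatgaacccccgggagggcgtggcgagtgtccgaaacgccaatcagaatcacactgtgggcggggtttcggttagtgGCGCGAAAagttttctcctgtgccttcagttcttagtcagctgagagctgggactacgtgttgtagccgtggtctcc
Mcm3, chr1:20820263-20820562, minus strand: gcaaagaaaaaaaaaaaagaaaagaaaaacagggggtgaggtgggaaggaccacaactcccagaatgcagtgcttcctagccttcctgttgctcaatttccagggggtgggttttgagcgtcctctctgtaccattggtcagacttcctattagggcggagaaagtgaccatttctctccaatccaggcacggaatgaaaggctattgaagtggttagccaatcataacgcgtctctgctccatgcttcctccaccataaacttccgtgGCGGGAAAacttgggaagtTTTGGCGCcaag
Mcm5, chr8:75109259-75109558, plus strand: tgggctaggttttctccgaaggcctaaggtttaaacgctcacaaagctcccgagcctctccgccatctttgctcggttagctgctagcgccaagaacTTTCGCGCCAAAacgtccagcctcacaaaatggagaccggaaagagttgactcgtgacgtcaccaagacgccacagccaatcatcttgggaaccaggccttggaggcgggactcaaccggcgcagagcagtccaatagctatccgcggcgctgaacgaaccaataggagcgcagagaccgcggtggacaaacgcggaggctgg
Mcm7, chr5:138171834-138172133, minus strand: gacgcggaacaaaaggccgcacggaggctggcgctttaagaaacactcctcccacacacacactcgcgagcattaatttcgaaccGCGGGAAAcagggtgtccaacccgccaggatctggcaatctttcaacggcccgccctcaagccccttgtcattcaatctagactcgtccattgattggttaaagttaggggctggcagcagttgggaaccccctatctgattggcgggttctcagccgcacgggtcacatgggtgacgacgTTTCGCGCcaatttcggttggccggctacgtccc
Pole2, chr12:69228141-69228440, minus strand: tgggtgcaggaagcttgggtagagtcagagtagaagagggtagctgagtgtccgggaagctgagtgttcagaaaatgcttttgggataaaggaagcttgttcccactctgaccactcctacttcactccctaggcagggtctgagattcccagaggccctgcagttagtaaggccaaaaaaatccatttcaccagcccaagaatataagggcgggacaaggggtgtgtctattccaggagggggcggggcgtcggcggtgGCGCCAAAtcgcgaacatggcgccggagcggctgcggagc
Rpa1, chr11:75348334-75348633, minus strand: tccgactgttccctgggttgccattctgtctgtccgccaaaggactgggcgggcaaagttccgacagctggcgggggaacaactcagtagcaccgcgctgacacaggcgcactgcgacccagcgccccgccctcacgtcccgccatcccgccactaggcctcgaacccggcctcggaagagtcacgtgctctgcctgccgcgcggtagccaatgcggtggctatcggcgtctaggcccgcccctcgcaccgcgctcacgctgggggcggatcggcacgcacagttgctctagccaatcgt

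The match in Orc1 lay 27 to 20 bases before the start. The overlapping pair in Mcm5 began 153 bases before the start, and the matches in Mcm3 lay 20 to 27 and 39 to 46 bases after it. A second promoter of Mcm7 in the same table held no match. Of 43 promoters found for 35 of the genes, 15 (34.9%) held an E2F-type match, against 744 of all 32851 promoters in the table (2.26%). A match is a run of letters and does not show that a factor binds there.

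Across the array, ND was the library farthest from the others. Over 10341 genes the typical (median absolute) log2 difference was 0.39 between HFD 1 and ND, 0.45 between HFD 2 and ND, and 0.13 between the HFD arrays. H2-Ea, a class II histocompatibility gene that BALB/c mice transcribe and C57BL/6 mice do not, read 536 and 602 on the HFD arrays and 11.5 on the ND array. Its second probe set read 256 and 260.0 on the HFD arrays and 17.0 on the ND array. The class II genes H2-Aa, H2-Ab1 and H2-Eb1 ran the other way, and were picked after their values were seen. H2-Aa read 3546 and 3664 on the HFD arrays and 7207 on the ND array, and H2-Eb1 read 1566 and 1547 on the HFD arrays and 2604 on the ND array. The ND library thus did not carry the H2-Ea signal of its strain label, and since it is the only ND library no result could be given without it. The part of strain, or of any handling the ND sample did not share, in the differences below was not tested and cannot be told apart from diet.

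Replication genes were higher on the HFD arrays across nearly every step of the machinery. Of the 41 measured genes, 35 rose, 1 fell and 5 did not pass the test, against 20.5% of all genes tested that rose, 29.2% that fell and 49.6% that passed in either direction. The median difference of the 41 genes was 1.0 on the log2 scale, that of all genes was -0.15, and the members' median thus lay 1.15 above it. In 37 genes both HFD arrays lay above the ND array, as they did for 35.8% of all genes. In 3 genes both lay below it (54.7% of all genes), and in Gins3 the ND array lay between them. A total of 16 genes (39.0%) were at least 2-fold higher on both HFD arrays, against 6.0% of all genes, and none was at least 2-fold lower, against 2.6% of all genes. Among all genes ranked by difference, 23 of the 41 lay above the 90th percentile and 2 below the median.

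The test was limma's moderated test over 10341 genes on log2(intensity + 17.65), a call being a Benjamini-Hochberg adjusted p under 0.05, and folds are on that scale, so those of dim genes come out too small. Intensities are the authors' deposited linear values, scaled to a common mean on each array. HFD levels below are the 2 arrays' values or their mean ± SD (n = 2), and the ND level is that of 1 array. In total RNA from a sorted population, fewer cells expressing a gene and less RNA per cell cannot be told apart.

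**Figure D1:**
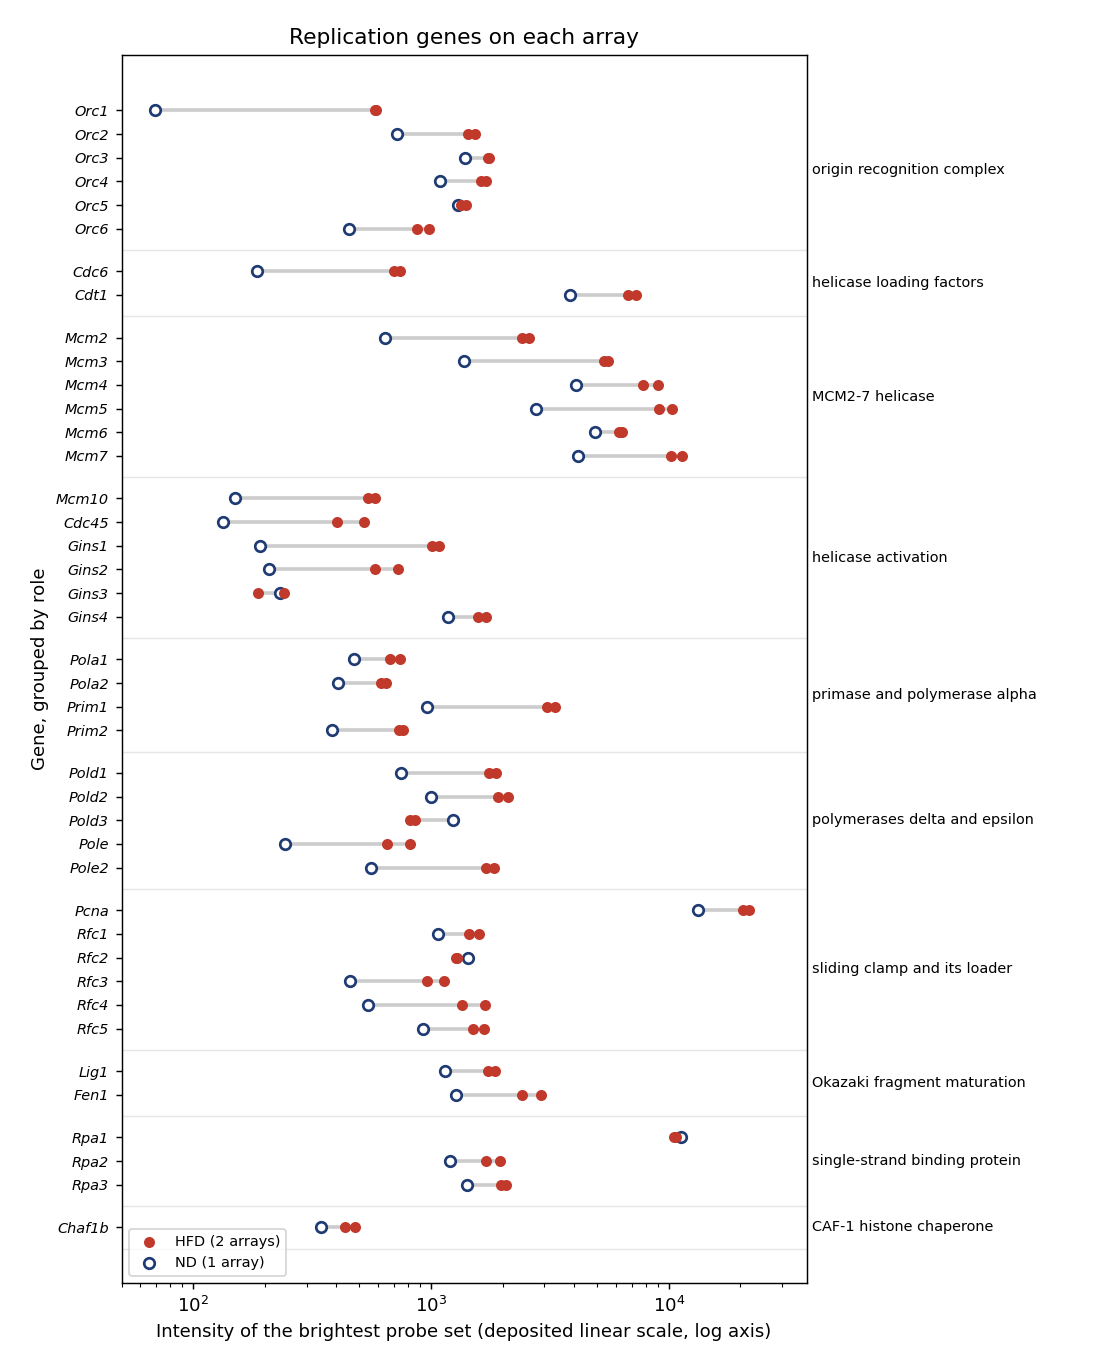
Intensity of each of the 41 measured replication genes on the 2 HFD arrays (filled red points) and the ND array (open blue points), on a log axis, with genes grouped by role. In 37 genes both red points lie right of the open one, with the widest gap at Orc1 (585 and 582 on the HFD arrays, 69.2 on the ND array).

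The origin recognition complex, the assembly that marks replication origins, changed unevenly among its 6 subunits. Orc1, the subunit whose level is known to vary through the cell cycle, read 585 and 582 on the HFD arrays and 69.2 on the ND array. The HFD arrays were nearly equal and far above the ND array, a 6.92-fold rise (log2 2.79 ± 0.19 SE, adjusted p = 1.9e-07 by limma) and the largest of the 41 genes. Its second probe set read lower, at log2 2.08. On the ND array both probe sets (69.2 and 58.4) lay below the filter's cutoff of 71.4. Orc1 thus passed the filter only through its HFD values. Orc2 read 1432 and 1528 on the HFD arrays and 721 on the ND array, and rose 2.03-fold. Orc6, the smallest subunit of the complex, read 870 and 978 on the HFD arrays and 450.3 on the ND array, and rose 2.01-fold. Both genes were thus about doubled on each HFD array.

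Orc4 and Orc3 rose less, 1.51-fold and 1.25-fold on their brightest probe sets. For Orc4 1 other probe set read 596 and 585 on the HFD arrays and 669 on the ND array, opposite in sign. For Orc3 1 other probe set read 142 and 138 on the HFD arrays and 220 on the ND array, also opposite in sign. With probe sets averaged both calls ended (adjusted p = 0.396 for Orc4 and 0.778 for Orc3, limma). The Orc3 call also ended with no filter (adjusted p = 0.0714, limma) and without a variance trend (adjusted p = 0.106, limma). Orc5 read 1404 and 1342 on the HFD arrays and 1299 on the ND array, a log2 difference of 0.08 (95% interval -0.20 to 0.36, limma adjusted p = 0.640).

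Both helicase loading factors rose. Cdc6, the ATPase that joins the origin recognition complex to load MCM2-7, read 698 and 738 on the HFD arrays and 186 on the ND array, 3.61-fold (adjusted p = 1.9e-06 by limma). Cdt1, which brings MCM2-7 to the origin and is destroyed once replication begins, read 6709 and 7265 on the HFD arrays and 3838 on the ND array, 1.82-fold. Both HFD arrays lay above the ND array in each gene, as in 35.8% of all genes, and the proportional change was larger in Cdc6.

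All 6 subunits of the MCM2-7 helicase, the ring that unwinds DNA at the fork, rose in HFD. Mcm2 read 2421 and 2573 on the HFD arrays and 643 on the ND array, and rose 3.81-fold. Mcm3 read 5326 and 5557 on the HFD arrays and 1379 on the ND array, and rose 3.91-fold. Mcm5 read 9125 and 10334 on the HFD arrays and 2777 on the ND array, and rose 3.48-fold. These 3 subunits had the largest proportional changes of the ring, and for each of them the HFD arrays lay over 3 times above ND.

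Mcm7 followed with 10206 and 11385 on the HFD arrays and 4138 on the ND array, a 2.60-fold rise. Mcm4 read 7772 and 8999 on the HFD arrays and 4081 on the ND array, and rose 2.04-fold. Mcm6 read 6154 and 6373 on the HFD arrays and 4879 on the ND array, the smallest rise of the ring at 1.28-fold (log2 0.36 ± 0.10 SE, adjusted p = 0.0077 by limma). The rises of the ring's subunits thus ranged from 1.28-fold to 3.91-fold. The Mcm6 call ended without a variance trend (adjusted p = 0.0893) and with probe sets averaged (adjusted p = 0.148), both by limma. That average took in a probe set below the filter.

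Among the factors that turn the loaded ring into a working helicase, 5 of 6 rose. Gins1 read 1009 and 1082 on the HFD arrays and 191 on the ND array, a 5.10-fold rise (log2 2.35 ± 0.15 SE, adjusted p = 1.4e-07 by limma). Its other probe set, below the filter, read log2 0.34, and with both averaged the difference was 1.35. Gins2 read 582 and 728 on the HFD arrays and 209 on the ND array, 2.95-fold. Gins4 rose 1.39-fold, with 1582 and 1708 on the HFD arrays and 1180 on the ND array. These genes encode subunits of the same GINS complex, which bridges the helicase and polymerase epsilon.

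The remaining GINS subunit, Gins3, read 187 and 241 on the HFD arrays and 232 on the ND array, so the groups overlapped (log2 -0.12, 95% interval -0.62 to 0.38, limma adjusted p = 0.70). Its sign also turned under quantile normalization (0.05) and with probe sets averaged (0.15). Mcm10, a fork scaffold needed to start unwinding, read 545 and 581 on the HFD arrays and 150 on the ND array, 3.46-fold. Averaged with its other probe sets, all below the filter, Mcm10 gave log2 0.90 against 1.79. Cdc45 read 401 and 525 on the HFD arrays and 133 on the ND array, 3.16-fold, while its other probe set read log2 0.54 against 1.66. In both Mcm10 and Cdc45 the 2 HFD arrays lay above the ND array, as they did for 35.8% of all genes.

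All 4 genes of primase and DNA polymerase alpha, the enzyme that lays down the RNA-DNA primer, rose. Prim1, the catalytic primase subunit, read 3076 and 3324 on the HFD arrays and 964 on the ND array, 3.27-fold (adjusted p = 2.5e-07 by limma). Prim2, the regulatory primase subunit, rose 1.91-fold, with 735 and 760 on the HFD arrays and 383 on the ND array. Pola1, the catalytic polymerase subunit, rose 1.47-fold, and Pola2, its partner, rose 1.53-fold. The primase subunits thus had the larger proportional changes of this enzyme. The Pola2 call ended with probe sets averaged (adjusted p = 0.559, limma), an average that took in its other probe sets, all below the filter. That of Pola1 ended with no filter (adjusted p = 0.0505, limma).

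Of the polymerase delta and epsilon genes, which encode the replicative polymerases of the lagging and leading strand, 4 rose and 1 fell. Pole, the catalytic subunit of polymerase epsilon, read 815 and 653 on the HFD arrays and 243 on the ND array, 2.87-fold. Pole2, its second subunit, read 1706 and 1842 on the HFD arrays and 560 on the ND array, 3.1-fold. Averaged with its other probe set, which is below the filter, Pole2 gave log2 0.94 against 1.63. Pold1, the catalytic subunit of polymerase delta, rose 2.38-fold, with 1747 and 1870 on the HFD arrays and 748 on the ND array. Pold2, its accessory subunit, rose 2.0-fold. In each of these genes both HFD arrays lay above ND.

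Pold3, a further subunit of polymerase delta, was the only called decrease. It read 857 and 817 on the HFD arrays and 1240 on the ND array, 1.47-fold lower (log2 -0.56 ± 0.14 SE, adjusted p = 0.0050 by limma). Its other probe sets went the opposite way, with 1007 and 930 on the HFD arrays against 810 on the ND array for the first, and 565 and 536 on the HFD arrays against 381 on the ND array for the other. The brightest probe set is of the x_at type, whose probes can match other sequences. With such probe sets and the s_at type, whose probes are shared between transcripts, set aside the difference was 0.25 (adjusted p = 0.158, limma).

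**Figure D2:**
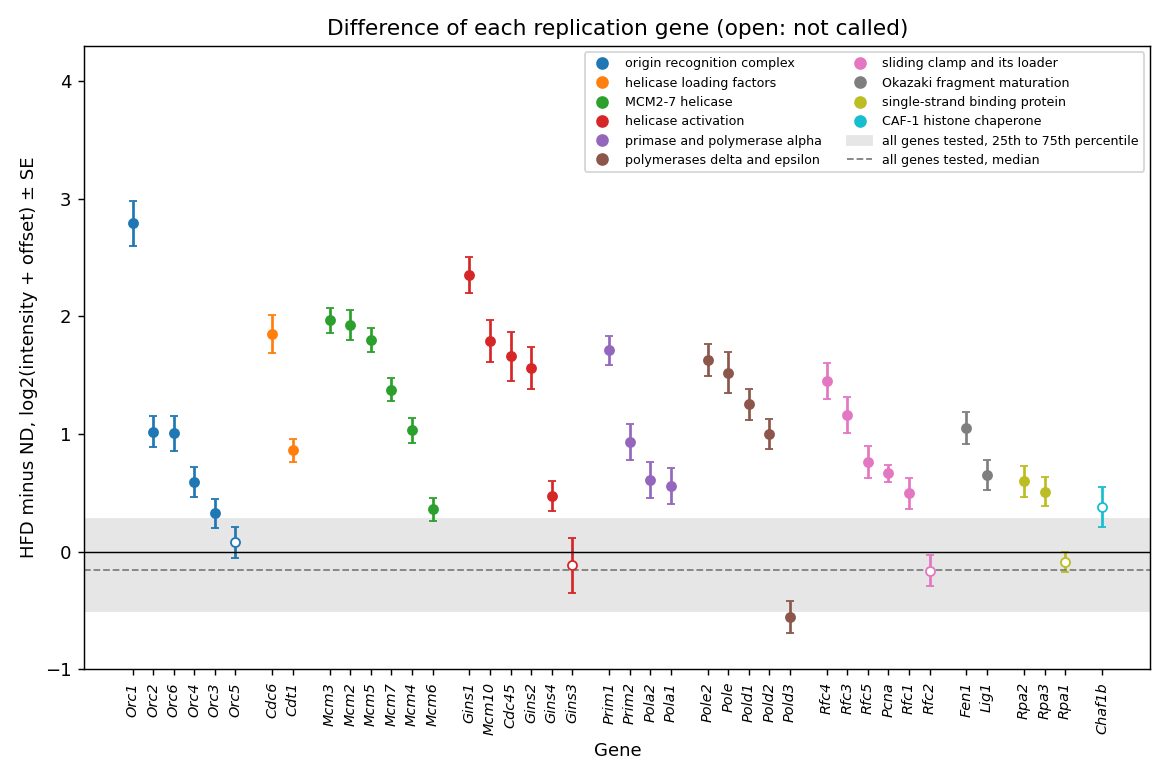
Difference between HFD and ND of each of the 41 genes on the log2(intensity + 17.65) scale, with the SE of limma as bars, ordered by size within each role. Filled points were called and open points were not, the grey band spans the 25th to 75th percentile of all 10341 genes tested, and Pold3 is the only filled point below 0.

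Of the sliding clamp and its loader, 5 of 6 genes rose. Pcna, the clamp that keeps polymerases on DNA, read 20505 and 21737 on the HFD arrays and 13307 on the ND array, 1.59-fold (adjusted p = 1.7e-05 by limma). Rfc4 read 1353 and 1694 on the HFD arrays and 543 on the ND array, 2.73-fold. Rfc3 read 965 and 1136 on the HFD arrays and 458 on the ND array, 2.24-fold. Both encode small subunits of replication factor C, and their HFD arrays were well above ND.

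Rfc5, another small subunit, rose 1.70-fold and Rfc1, the large subunit, rose 1.41-fold. Rfc2 read 1277 and 1293 on the HFD arrays and 1438 on the ND array, a log2 difference of -0.16 (95% interval -0.44 to 0.12, limma adjusted p = 0.320). The subunits of the loader thus ran between -0.16 and 1.45 on the log2 scale. The Rfc1 call ended without a variance trend (adjusted p = 0.0518, limma), as did that of Gins4 (adjusted p = 0.0545, limma).

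Both genes of Okazaki fragment maturation rose. Fen1, the nuclease that trims the displaced flap, read 2408 and 2908 on the HFD arrays and 1268 on the ND array, 2.07-fold, and Lig1, the ligase that seals the nick, rose 1.57-fold. Of the 3 subunits of replication protein A, which coats single-stranded DNA, Rpa2 rose 1.51-fold and Rpa3 rose 1.42-fold. Rpa1, the large subunit, read 10681 and 10488 on the HFD arrays and 11252 on the ND array, a log2 difference of -0.09 (95% interval -0.27 to 0.09, limma adjusted p = 0.395), and its second probe set was also slightly below 0. Under quantile normalization Rpa1 was called lower (log2 -0.29, adjusted p = 0.0051, limma). Chaf1b, the middle subunit of the CAF-1 histone chaperone, read 478 and 435 on the HFD arrays and 346 on the ND array (log2 0.38, 95% interval 0.01 to 0.75, limma adjusted p = 0.0832). Quantile normalization gave Chaf1b a call as higher (adjusted p = 0.0214, limma).

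By role, the median log2 difference was 1.61 for helicase activation, 1.59 for MCM2-7, 1.36 for the loading factors and 1.25 for polymerases delta and epsilon. It was 0.85 for Okazaki fragment maturation, 0.80 for the origin recognition complex, 0.77 for primase and polymerase alpha, 0.71 for the clamp and its loader and 0.51 for replication protein A. Members of 1 role differed widely, and differences between roles were not tested. The HFD arrays differed little for these genes, by at most 0.38 on the log2 scale. HFD 2 lay above HFD 1 in 33 of the 41 genes, against 50.6% of all genes, by a median of 0.10.

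Other probe sets of the same genes mostly agreed in sign with the brightest. Of 90 probe sets 79 passed the filter, and 70 of these were higher on both HFD arrays and 7 lower on both. Beside the brightest there were 38 further probe sets for 25 genes, of which 32 had the same sign and 6, from 5 genes, the opposite one. Those 5 genes were Gins3, Orc3, Orc4, Pold3 and Rfc2. Of the 38, 24 were closer to 0 than the brightest, and the largest gaps included Mcm3 (0.53 against 1.97), whose 3 other probe sets read 1.67 to 1.88.

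**Figure D3:**
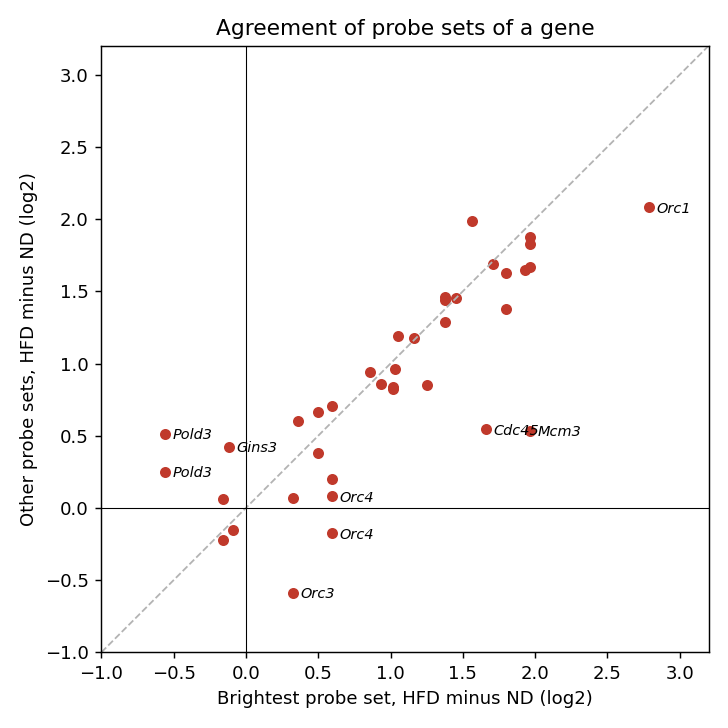
Difference between HFD and ND (log2) of the 38 further probe sets past the filter against that of the brightest probe set of the same gene, with equality dashed and gaps over 0.5 named. Most points lie near the line, and the opposite signs are at Gins3, Orc3, Orc4, Pold3 and Rfc2.

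A list of 35 other replication genes, outside the 42, was read in the same way. Of these 25 rose (71.4%, against 20.5% of all genes), 1 fell and 9 did not pass the test, with a median of 0.63 on the log2 scale. Dtl, which directs the destruction of Cdt1 in S phase, read 982 and 957 on the HFD arrays and 283 on the ND array, 3.28-fold. Tipin and Timeless, partners that protect the fork, rose 3.27-fold and 2.73-fold. Uhrf1, which guides the maintenance of DNA methylation at the fork, rose 3.34-fold, and the histone chaperone Nasp rose 3.03-fold. Recql4, a helicase needed to start replication, rose 2.54-fold, with 253 and 281 on the HFD arrays and 94.4 on the ND array. Gmnn, which encodes the Cdt1 inhibitor geminin, rose 2.17-fold. The decrease was that of Pold4, the small subunit of polymerase delta, at 1.31-fold lower (adjusted p = 0.0359 by limma). That call was lost under quantile normalization, with arrays centred, with no filter, without a variance trend and at an adjusted p under 0.01.

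Regulators of the G1 to S transition held calls in both directions. Of 21 such genes 9 rose (42.9%, against 20.5% of all genes), 4 fell (19.0%, against 29.2% of all genes) and 8 did not pass the test. E2f1, an activator of replication genes, read 343 and 282 on the HFD arrays and 100 on the ND array, 2.78-fold, and its dimer partner Tfdp1 rose 2.80-fold. Cdk4 and Cdk6, the kinases that inactivate the retinoblastoma protein, rose 2.76-fold and 1.75-fold, and the cyclin gene Ccne1 rose 2.65-fold. Rbl2, which encodes the p130 protein that represses E2F targets in resting cells, read 1592 and 1503 on the HFD arrays and 3350 on the ND array, 2.15-fold lower (adjusted p = 1.2e-05 by limma). Rb1 fell 1.53-fold, Tfdp2 fell 1.60-fold and E2f2 fell 1.35-fold.

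Genes of mitosis gave other counts than the replication genes. Of 24 measured genes 2 rose (8.33%, against 20.5% of all genes), 5 fell (20.8%, against 29.2% of all genes) and 17 did not pass the test. Their median was -0.11, close to the -0.15 of all genes. Under quantile normalization 4 were called higher and 3 lower. Cdk1, the kinase that drives entry into mitosis, read 916 and 866 on the HFD arrays and 352 on the ND array, 2.46-fold, and the checkpoint kinase gene Bub1 rose 1.61-fold. Mki67, the proliferation marker, read 1610 and 1440 on the HFD arrays and 2092 on the ND array, 1.37-fold lower (adjusted p = 0.0109 by limma). Pttg1, which encodes securin, fell 1.75-fold, the centromere histone gene Cenpa fell 1.56-fold and Ube2c fell 1.34-fold. Ccnb2 also fell, 1.43-fold. The difference between the lists was not tested, and the comparison rests on the counts and medians given.

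**Figure D4:**
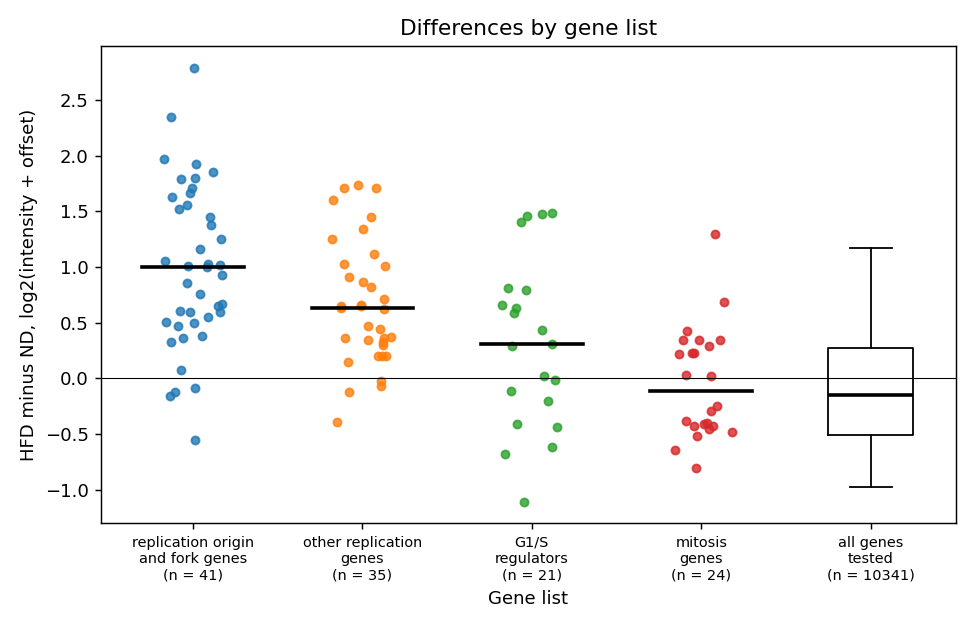
Difference between HFD and ND (log2) of every measured gene in the 4 lists, with black lines at the medians (1.0, 0.63, 0.31 and -0.11), beside a box plot of all 10341 genes tested (box, 25th to 75th percentile; whiskers, 5th to 95th). Points of the replication lists lie mostly above 0 and those of the mitosis list on both sides of it.

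The letters searched in the promoters differed in share between the same lists. E2F-type matches stood in 34.9% of the 43 promoters of the replication genes, 30.3% of those of the other replication genes, 38.1% of those of the G1/S regulators, 4.76% of those of the mitosis genes and 2.26% of all promoters. The CHR, a motif of genes expressed in late cell cycle phases (letters TTTGAA, both strands), stood in 11.6% of the promoters of the replication genes, 71.4% of those of the mitosis genes and 17.9% of all promoters. The CCAAT box (both strands) stood in 55.8%, 81.0% and 37.4% of the same promoters, in that order. None of the E2F-type words contains the letters of another motif searched.

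Among the measured members with a promoter in the table, the 15 with an E2F-type match had a median difference of 1.16 on the log2 scale (range -0.56 to 2.79), and 13 of them rose. The 19 without a match had a median of 0.76 (range -0.09 to 1.93), and 16 of them rose. Of all genes tested 20.5% rose. The ranges overlapped widely, and Mcm2 rose 3.81-fold with no such letters in its window. Gins3 and Pold3 held the letters and did not rise on their brightest probe sets. Their other probe sets past the filter read higher on both HFD arrays (log2 0.42 for Gins3, 0.25 and 0.51 for Pold3). The other motifs gave medians that ran the same way. The 21 members with a CCAAT box had a median of 1.01, and 19 rose. The 13 without it had a median of 0.76, and 10 rose. For the CHR the median was 1.05 in 5 members with it (4 rose). It was 0.76 in 29 without it (25 rose). Differences between members with and without a motif were not tested. For 7 members, among them Gins1 and Mcm4, no promoter was read.

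**Figure D5:**
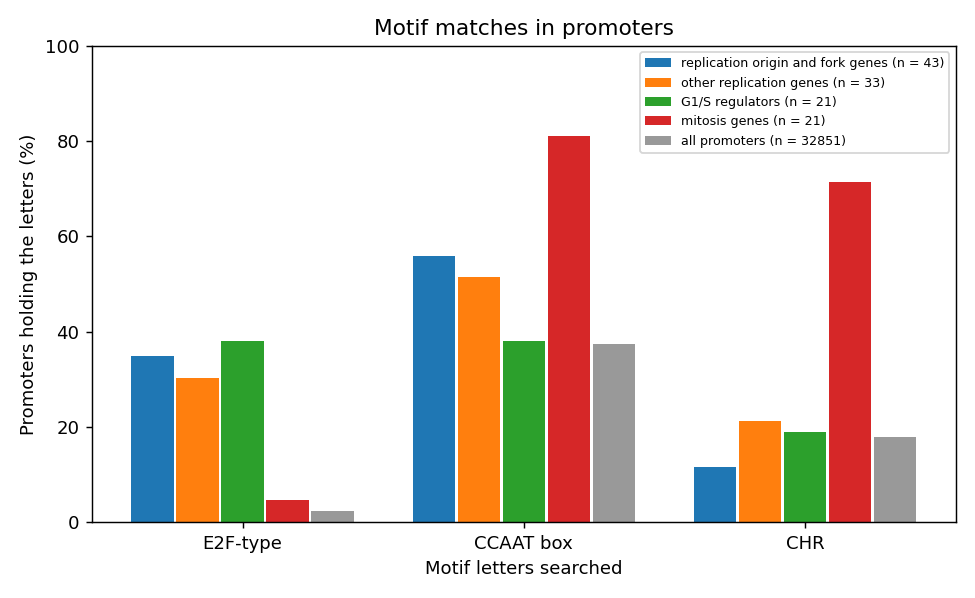
Share of promoters (%) that hold the E2F-type letters, the CCAAT box or the CHR, for each gene list and for all 32851 promoters, in windows of 300 bases. The E2F-type share is 34.9% for the replication genes, 4.76% for the mitosis genes and 2.26% for all promoters.

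Markers of other cells were read on the same arrays as summed intensity. Beside the counts of called markers below, 20.5% of all genes tested rose and 29.2% fell. The 7 measured T cell markers, Cd3e and Cd4 among them, summed to 66071 to 67735 on the HFD arrays and 83807 on the ND array, and 6 of 7 fell. The 8 myeloid markers summed to 1604 to 1962 on the HFD arrays and 4210 on the ND array, and the 6 dendritic cell markers to 783 to 885 on the HFD arrays and 1915 on the ND array. In each of these lists 4 of the 5 markers past the filter fell. The 7 B cell markers summed to 2818 to 2931 on the HFD arrays and 1690 on the ND array. Most of the HFD sum was Ms4a1 (1612 and 1837 on the HFD arrays, 56.8 on the ND array). Of the 5 past the filter, 1 rose (Ms4a1, 23.4-fold, adjusted p = 1.7e-09 by limma) and 1 fell (Cd22). The ND value of Ms4a1 lay below the filter's cutoff of 71.4, so this gene passed through its HFD values. Cd79a, below the filter, read 51.2 and 49.4 on the HFD arrays and 5.74 on the ND array. The 6 plasma cell markers summed to 6550 to 7744 on the HFD arrays and 2145 on the ND array, and 2 of the 4 past the filter rose. These were Irf4, which activated T cells also express (5483 and 6613 on the HFD arrays, 910 on the ND array), and Mzb1 (280 and 289 on the HFD arrays, 169 on the ND array, adjusted p = 0.0145 by limma). Most of the HFD sum of the plasma cell markers was Irf4. Prdm1 (674 and 710 on the HFD arrays, 838 on the ND array) ran lower on both HFD arrays. So did Jchain (67.6 and 102 on the HFD arrays, 162 on the ND array). Neither was called. Sdc1, below the filter, was also lower on both (40.5 and 26.8, against 61.2 on the ND array). Tnfrsf17 read 4.52 and 3.10 on the HFD arrays and 3.96 on the ND array. The 7 erythroid markers summed to 232 to 242 on the HFD arrays and 350.1 on the ND array, with Alas2 at 2.09 and 5.71 on the HFD arrays and 14.1 on the ND array, and 2 of the 7 passed the filter, neither of them called. The 5 markers of CD8 T and NK cells summed to 2624 to 2846 on the HFD arrays and 3101 on the ND array, and 2 of 4 past the filter rose (Cd8a and Eomes) while Klrd1 fell. No marker was at exactly 0, and the part of other cells in the replication results was not tested.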

How the data were processed

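Total RNA was hybridised to 3 Affymetrix mouse arrays, 2 HFD and 1 ND. The authors deposited a linear intensity for each probe set, made with GCOS per the submitters' processing notes. Its version and algorithm were not given in the sources used here. Trimmed of 2% at each end, every array averages 500.0, and array medians were 69.7, 67.4 (HFD) and 78.3 (ND). The number of arrays limits the precision.

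From 45101 probe sets, 64 controls were set apart and 34945 with 1 gene symbol kept. Values were transformed as log2(intensity + 17.65), the 25th percentile being the offset. Genes with a mean above 71.4, the median of all probe sets, entered by their brightest probe set (10341 genes). The fit was limma 3.58.1 under R 4.3.3 (lmFit, then eBayes with a mean-variance trend). Tests were two-sided, with 1 residual and 11.69 prior degrees of freedom. A run on simulated data gave every array the same noise. It therefore cannot check the assumption that the lone ND array varies like the HFD arrays. Tables and figures used Python 3.11.15, pandas 2.3.3, numpy 2.4.6 and matplotlib 3.10.9. All 42 genes are named; up to 6 called genes of each other cell cycle list were named by the size of their smaller difference over both HFD arrays, and Pold4, Gmnn, Rb1, Tfdp2, E2f2, Ccnb2 and the class II genes were chosen after their values were seen. The members and lists were chosen with earlier results of these data known. Entrez identifiers were looked up in the RefSeq table of GRCm38.p6, which changed 0 symbols. Alternatives covered normalization, offset, filter, probe sets, variance model, thresholds and leaving out each HFD array.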

Additional observations from a re-analysis of the deposited data

How the results depend on the processing

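Of the 41 replication genes, 31 to 36 were called higher under every alternative run (35 as reported), and 28 of the 35 kept their call in each alternative that tested them at an adjusted p under 0.05 (up to 11). The 75th percentile filter, with 32 called higher, left Orc1, Mcm10, Cdc45, Gins3 and Chaf1b untested. The median of the replication genes above all genes stayed between 1.04 and 1.22 (1.15 as reported). Genes called lower numbered 2 under quantile normalization, 0 with probe sets averaged and 0 without s_at and x_at probe sets, an alternative chosen after seeing the data, against 1 as reported. At an adjusted p under 0.01, 34 were higher, against 1661 of all 10341 genes tested. Genes at least 1.5-fold higher on both HFD arrays numbered 26, against 16 at 2-fold. All genes were not counted at 1.5-fold, nor at 2-fold with an HFD array left out. Without an HFD array the 2-fold count ran from 16 to 21 higher, with 0 lower, and the median from 1.05 to 1.22. No test could be made then, since no residual degree of freedom is left. Signs turned for Gins3 under quantile normalization (0.0483) with probe sets averaged (0.153) and without HFD replicate 1 (0.0512), for Orc3 with probe sets averaged (-0.0637), and for Pold3 with probe sets averaged (0.0688) and without s_at and x_at probe sets (0.252). These 3 genes hold probe sets of opposite sign past the filter. The Gins3 turns under quantile normalization and without HFD replicate 1 used its brightest probe set alone. The cause of these turns and of the other changes was not tested.

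Other replication genes called higher numbered 15 with probe sets averaged, 17 without a variance trend and 20 with no filter, against 25. They numbered 21 at an adjusted p under 0.01 and 22 under a 75th percentile filter. Those called lower numbered 0 under quantile normalization, with arrays centred, with no filter, without a variance trend and at an adjusted p under 0.01, against 1. G1/S regulators called lower numbered 2 with probe sets averaged, against 4. Mitosis genes called higher numbered 4 under quantile normalization and 1 with no filter, against 2. Mitosis genes called lower numbered 3 under quantile normalization, under no filter, under a 75th percentile filter and with probe sets averaged, and 2 without a variance trend and at an adjusted p under 0.01, against 5. With no filter 1663 of all genes rose and 1922 fell among 18193, against 2117 and 3015 among 10341. Quantile normalization moved the median of all genes to -0.08. No paired analysis was possible because the ND group holds 1 array. No detection calls were used, so whether a dim signal exceeds background is unknown.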
